A study of Mus musculus with 87 samples.

Results

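Complement components and regulators were followed as 7 genes, C2, C3, C4b, Cfb, Serping1, C1ra and Cd55, in nuclei of the mouse ventral midbrain after a local injection of interferon-γ (IFN-γ). The members were found by their symbols among the 48526 genes of the deposited table, and all 7 had at least 1 count. Wild-type C57BL/6J mice of both sexes, aged 6 to 12 months, were injected with either 40 ng of IFN-γ or saline (400 nL), and nuclei were sorted into NeuN- (mostly glial) and NeuN+ (neuronal) wells, NeuN being the neuronal nuclear protein encoded by Rbfox3. Per fraction there were 6 wells of each treatment at 24 h, and 6 of IFN-γ and 4 of saline at 6, 48 and 72 h, making 42. The labels name every well NeuN+, so the fraction was read from the study's supplementary list by well barcode. Mean Rbfox3 was 4.28 to 28.2 CPM (counts of the gene scaled to an equal total in every well) in the groups of NeuN- wells and 108 to 149 CPM in those of NeuN+ wells. A further 3 libraries of single nuclei, 1 from saline and 2 from IFN-γ mice at 48 h and enriched for NeuN+ nuclei by sorting, held 4699 nuclei. The wells came from a few mice that the sources used here do not link to wells, so every p-value on wells measures the spread between wells. In bulk wells, fewer cells of a type and less RNA per cell cannot be told apart.

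Complement is a cascade of plasma and tissue proteins that marks cells, synapses and microbes for removal. In the classical pathway, C1q carries the proteases C1r and C1s, which cleave C4 and C2 to form an enzyme that cleaves C3, while factor B (Cfb) builds the corresponding enzyme of the alternative pathway. Inhibitors restrain each step, with Serping1 encoding C1 inhibitor, which inactivates C1r and C1s, and Cd55 encoding decay-accelerating factor, a membrane protein that takes apart the enzymes that cleave C3. In the brain, C1q comes mainly from microglia, and C4 and C3 tag synapses in development and disease.

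Among the members, C4b and Serping1 were higher after IFN-γ in both fractions at 24 h, C1ra was higher in NeuN+ wells at 24 h, and Cd55, with 370 of its 377 counts in the deeper NeuN+ wells, did not pass the test at any time. C4b stayed higher in NeuN- wells to 72 h, whereas Serping1 was hardly seen in NeuN- wells after 24 h. C2 was seen at a few counts a group, and C3 and Cfb at fewer. Over all 84 wells the tables held 831 counts of C4b, 586 of Serping1, 377 of Cd55, 89 of C2, 61 of C1ra, 9 of C3 and 1 of Cfb, and these sums set how firmly each gene can be described. Wells held 20962 to 301445 unique molecular identifier (UMI) counts in NeuN- and 277113 to 1684374 in NeuN+, so 1 count weighs more in a NeuN- well.

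IFN-γ and saline wells were compared within a fraction and time by the edgeR quasi-likelihood test with Benjamini-Hochberg adjustment over all genes with at least 10 counts, and genes past 1 on the log2 scale at an adjusted p below 0.01 are named as called. In NeuN- wells 2 of 3 tested members were higher at 6 h and 2 of 3 at 24 h (C4b and Serping1 both times), then 1 of 1 at 48 h and 1 of 1 at 72 h (C4b). The share of all tested genes called higher was 3.41%, 3.77%, 0.52% and 0.438% at these times. C4b alone had the 10 counts needed for a test in NeuN- wells at 48 and 72 h. It met this filter through the IFN-γ wells, with 71 counts each time against 7 and 6 in saline. Serping1 met it so in NeuN- wells at 6 h (61 counts against 6 in saline) and 24 h (83 against 2). C1ra did at 6 h (10 against 0). The counts of 2 of 3 and 1 of 1 are therefore no rates over the members. In NeuN+ wells 1 of 5 tested members was higher at 6 h (Serping1), 3 of 5 at 24 h (C4b, Serping1 and C1ra), 0 of 4 at 48 h and 1 of 4 at 72 h (C4b), where 0.81%, 1.3%, 0.126% and 0.249% of all tested genes were called higher. No member was called lower in these 8 comparisons by edgeR or DESeq2, while the share of all tested genes called lower was 1.46%, 2.6%, 0.114% and 0.149% in NeuN- and 0.227%, 0.214%, 0.018% and 0.315% in NeuN+ wells. At 48 h in NeuN+ wells, 1 member (C4b) had an unadjusted p below 0.05, and DESeq2 called 0 members there. Serping1 at 6 h met the filter in NeuN+ wells through the IFN-γ wells, with 218 counts against 8 in saline. So did C1ra at 6 h (14 against 0) and 24 h (18 against 1). The same held for C4b at 48 h (33 against 2) and 72 h (65 against 7). It held for C2 at 6, 48 and 72 h (17 against 8, 13 against 4 and 12 against 6). The counts of members in NeuN+ wells are therefore no rates either.

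**Figure D1:**
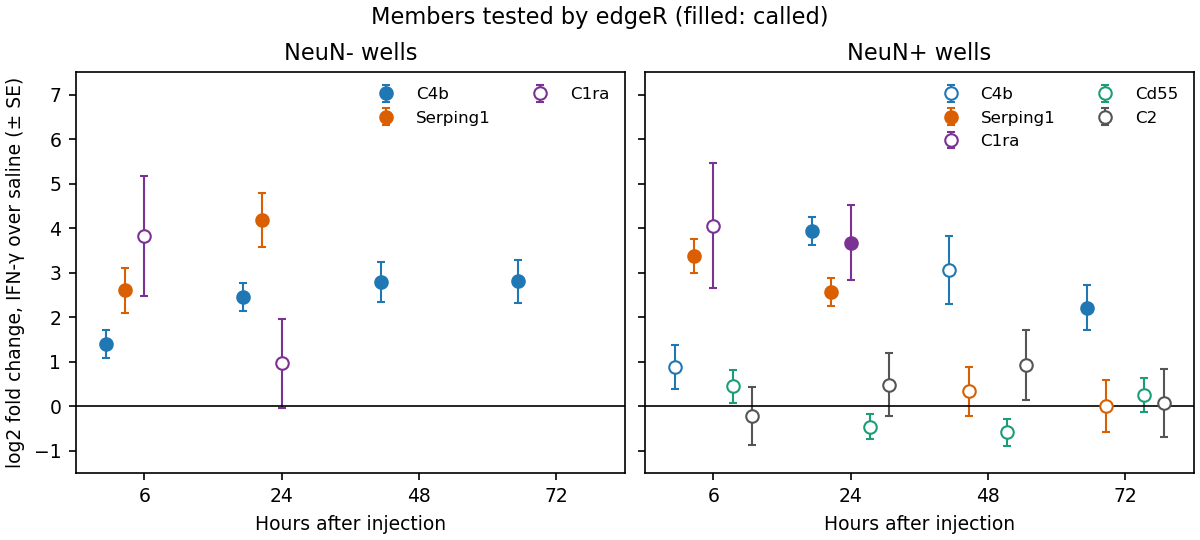
Log2 fold change of IFN-γ over saline (edgeR, points with standard errors) for the tested members by time in hours, with NeuN- and NeuN+ wells in separate panels and filled points marking calls. C4b lies above 1 in NeuN- wells at all 4 times, from 1.40 to 2.80, while Serping1 in NeuN+ wells goes from 3.37 at 6 h to 0.01 at 72 h.

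C4b encodes complement C4, the component that becomes bound to a target after cleavage by C1s, and lies at chr17:34728380-34743882 on the minus strand of GRCm38 (ENSMUSG00000073418.4). In NeuN- wells at 6 h its level was 43.5, 85.6, 70.0 and 38.2 CPM in the 4 saline wells and 74.2 to 184.4 CPM (median 164.8) in the 6 IFN-γ wells. The lowest IFN-γ well lay below the highest saline well, so the groups overlapped. The log2 fold change was 1.40 (SE 0.31, edgeR adjusted p = 0.000224). At 24 h the saline wells ranged from 0 to 60.6 CPM (median 36.3) and the IFN-γ wells from 153.4 to 245.2 CPM (median 213.8), with a log2 fold change of 2.46 (SE 0.31, edgeR adjusted p = 4.91e-13). Every IFN-γ well was above every saline well at 24 h and again at the later times, a separation shown by 3.99%, 1.91% and 1.53% of all tested genes at 24, 48 and 72 h.

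At 48 h the saline NeuN- wells held 10.4, 16.9, 29.5 and 0 CPM of C4b and the IFN-γ wells 82.9 to 133.8 CPM (median 108.5). The log2 fold change was 2.79 (SE 0.45, edgeR adjusted p = 6.80e-07). At 72 h the saline wells held 14.4, 7.44, 27.2 and 0 CPM and the IFN-γ wells 68.4 to 104.9 CPM (median 86.5), a log2 fold change of 2.80 (SE 0.48, edgeR adjusted p = 4.00e-06). C4b was thus still above saline in every IFN-γ well 72 h after the injection. Mean levels in the saline wells were 59.3 ± 22.4 (SD, n = 4) at 6 h and 12.3 ± 11.6 CPM (SD, n = 4) at 72 h, and these were not compared by a test. In the IFN-γ wells the means were 142.2 ± 45.5, 204.9 ± 39.1, 108.3 ± 19.9 and 87.4 ± 12.9 CPM (SD, n = 6 each) at 6, 24, 48 and 72 h. Put in order from 24 h through 6, 48 and 72 h, each group of IFN-γ wells overlapped the next in range.

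**Figure D2:**
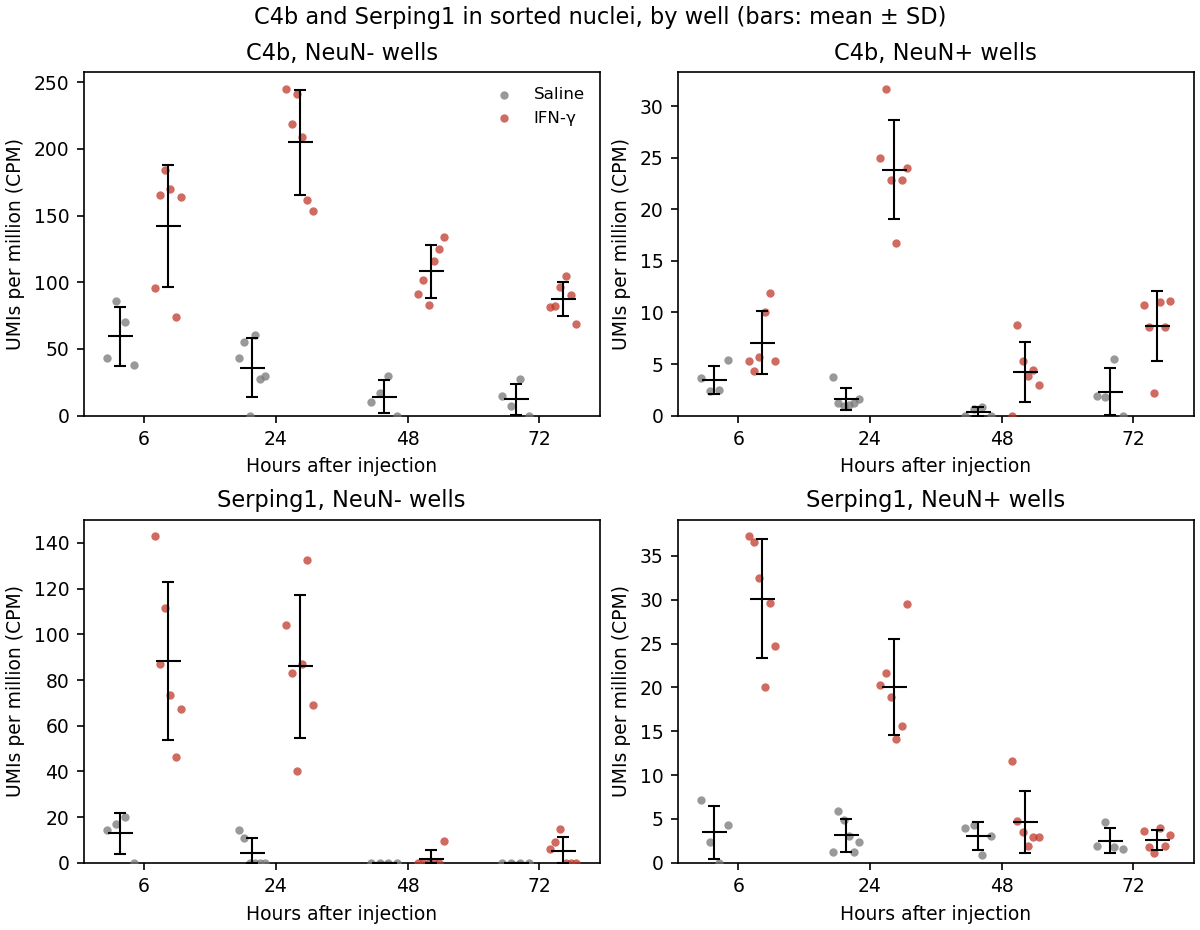
CPM of C4b and Serping1 in each well (points) by time in hours, for saline and IFN-γ wells of the NeuN- and NeuN+ fractions, with the mean and SD of each group. C4b in NeuN- wells at 24 h lies at 153.4 to 245.2 CPM after IFN-γ and at 0 to 60.6 CPM after saline, and Serping1 at 40.2 to 132.5 against 0 to 14.4 CPM.

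In NeuN+ wells C4b was at a far lower level than in NeuN- wells, and it was called at 24 and 72 h. At 6 h the saline wells held 3.61, 2.35, 2.52 and 5.37 CPM and the IFN-γ wells 4.30 to 11.85 CPM (median 5.51), and the difference was not called (log2 fold change 0.87, SE 0.49, edgeR adjusted p = 0.422), though it was with the saline wells of all times (1.94, edgeR adjusted p = 0.000186). At 24 h the saline wells held 0.973 to 3.76 CPM (median 1.19) and the IFN-γ wells 16.8 to 31.7 CPM (median 23.4). Each IFN-γ well was above each saline well, as for 2.19% of all tested genes, and the log2 fold change was 3.94 (SE 0.32, edgeR adjusted p = 4.67e-12). The log2 effect of IFN-γ was larger at 24 than at 6 h by 3.06 (SE 0.70, edgeR adjusted p = 0.00782), which made C4b 1 of 5 tested members with a larger effect at 24 h where 0.247% of all tested genes had one. DESeq2 set C4b aside in this comparison and gave no adjusted p. In the 3 other comparisons of times (6 to 24 h and 24 to 72 h in NeuN-, 24 to 72 h in NeuN+ wells) edgeR called 0 of 3, 0 of 3 and 0 of 5 members in either direction, DESeq2 called 0, and 1, 0 and 2 had an unadjusted p below 0.05, where 1.52%, 2.42% and 0.576% of all tested genes were called.

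At 48 h the saline NeuN+ wells held 0, 0.614, 0.841 and 0 CPM of C4b and the IFN-γ wells 0 to 8.78 CPM (median 4.16). These groups overlapped, since 1 IFN-γ well held no count, and the difference was not called (log2 fold change 3.06, SE 0.76, edgeR adjusted p = 0.0505). At 72 h the saline wells held 1.94, 1.85, 5.51 and 0 CPM and the IFN-γ wells 2.21 to 11.1 CPM (median 9.67). The groups overlapped through 1 low IFN-γ and 1 high saline well, and the log2 fold change was 2.21 (SE 0.51, edgeR adjusted p = 0.00471). The 72 h call was lost with DESeq2 (adjusted p = 0.0332) and without any 1 of saline replicates 1, 2 and 4 or IFN-γ replicates 1, 4 and 6 (edgeR adjusted p = 0.0115 to 0.0721).

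The level of C4b in NeuN+ wells is given here beside the glial RNA of the same wells. Over saline wells of all times C4b was lower in NeuN+ than in NeuN- wells by a log2 fold change of -3.61 (SE 0.33, edgeR adjusted p = 3.16e-17), as 12.1% of all tested genes were. Mean C4b in NeuN+ saline wells was 5.84%, 4.52%, 2.57% and 19.0% of that in NeuN- saline wells at 6, 24, 48 and 72 h, and the summed level of 10 oligodendrocyte markers, none of them at 0, was 4.06%, 4.66%, 3.56% and 4.76%. After IFN-γ the shares were 4.98%, 11.6%, 3.90% and 9.97% for C4b and 3.77%, 10.9%, 5.76% and 8.42% for the oligodendrocyte markers. The summed oligodendrocyte markers in NeuN+ wells ranged from 476.7 to 734.5 CPM in saline and from 506.5 to 580.5 CPM in IFN-γ wells at 24 h. At 72 h they ranged from 542.1 to 696.2 CPM in saline and from 981.0 to 1150.0 CPM in IFN-γ wells, so these groups did not overlap. The 10 astrocyte markers were apart at 24 h in NeuN+ wells (172.3 to 412.5 CPM in saline and 444.8 to 510.1 CPM in IFN-γ wells), and so were the 12 microglial markers (111.7 to 174.9 and 198.5 to 251.9 CPM). At 6 h the astrocyte markers were lower after IFN-γ (245.4 to 326.9 and 189.8 to 237.4 CPM). So were the oligodendrocyte markers at 6 h (440.5 to 619.8 and 293.6 to 347.9 CPM). At 72 h the astrocyte markers were higher after IFN-γ (289.2 to 330.1 and 377.3 to 435.3 CPM). The part of glial RNA in the NeuN+ levels of C4b and Serping1 was not tested. The difference in IFN-γ effect between the fractions was not called for C4b at any time (1.31 in NeuN+ minus NeuN- at 24 h, SE 0.51, edgeR adjusted p = 0.162), and 0 of 5, 5, 4 and 4 tested members were called in this interaction at 6, 24, 48 and 72 h by edgeR and 0 by DESeq2. Of these members 0, 2, 1 and 0 had an unadjusted p below 0.05 in edgeR, and 0.799%, 1.76%, 0.064% and 0.211% of all tested genes were called in either direction.

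**Figure D3:**
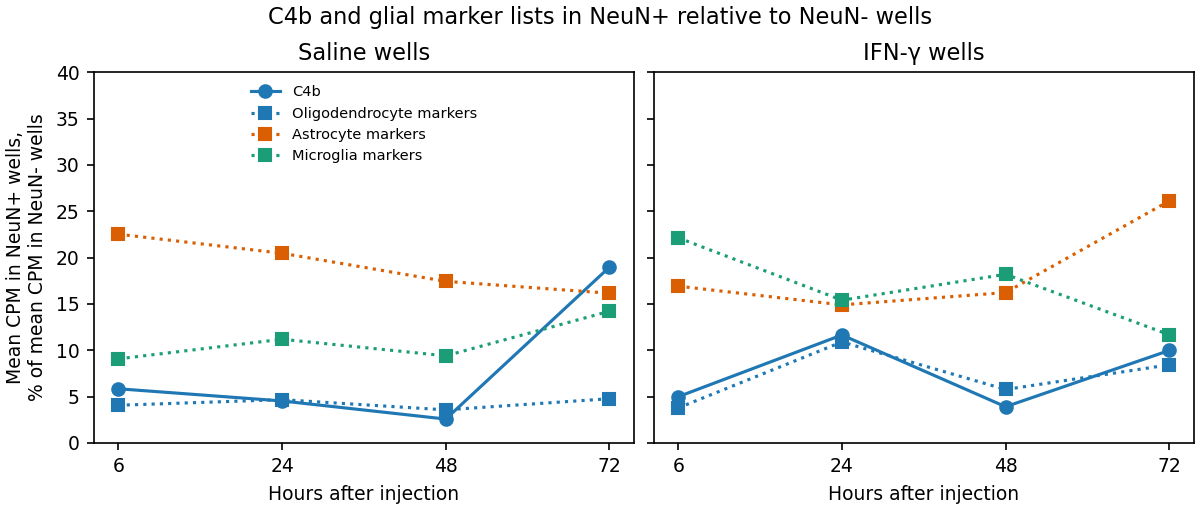
Mean CPM in NeuN+ wells as a percentage of the mean in NeuN- wells, by time in hours, for C4b and for the summed markers of oligodendrocytes, astrocytes and microglia, with saline wells on the left and IFN-γ wells on the right. After IFN-γ, C4b goes through 4.98%, 11.6%, 3.90% and 9.97%, and the oligodendrocyte markers through 3.77%, 10.9%, 5.76% and 8.42%.

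In NeuN- wells the glial markers themselves differed between treatments. The summed oligodendrocyte markers had means of 12280 CPM in saline and 8572 CPM in IFN-γ wells at 6 h and of 12470 and 5091 CPM at 24 h, and the groups did not overlap at either time. The summed level of 10 astrocyte markers was 1397 CPM in saline and 3163 CPM in IFN-γ wells at 24 h, and that of 12 microglial markers was 1328 and 598.2 CPM at 6 h and 1267 and 1386 CPM at 24 h. At 6 and 24 h C4b was higher in these same IFN-γ wells. At 72 h the oligodendrocyte markers were at 12880 CPM in saline and 12780 CPM in IFN-γ wells while C4b was higher in every IFN-γ well. The astrocyte markers were apart at 48 h (736.8 to 1308 CPM in saline and 1555 to 1790 CPM in IFN-γ wells), and the microglial markers were apart at 72 h (1028 to 1220 and 1490 to 1829 CPM). The oligodendrocyte markers at 48 h ranged from 12760 to 14100 CPM in saline and from 10990 to 12530 CPM in IFN-γ wells. The part of these shifts in the levels of C4b and Serping1 was not tested.

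The 48 h libraries of nuclei showed which classes held C4b. Nuclei were grouped by clustering without complement genes, and 191, 744 and 306 nuclei of the saline, first and second IFN-γ library were oligodendrocyte-like by markers such as Mbp, St18 and Mobp. C4b had 15, 626 and 349 UMIs in these nuclei, at 21.6, 231.8 and 241.7 CPM. The ratio to saline was 10.7 (95% exact interval 6.46 to 19.3) in the first and 11.2 (6.69 to 20.2) in the second IFN-γ library, where the intervals cover counting error alone. Over the 3 libraries the log2 fold change was 3.52 (SE 0.28, n = 1 saline and 2 IFN-γ libraries). With 1 saline library the spread between saline mice is unknown. The edgeR p-values in nuclei rest on a dispersion shared over all tested genes, which comes from the 2 IFN-γ libraries. C4b was called, 1 of 3 tested members, by the limits of 3 on the log2 scale and 0.01 on the adjusted p, where 0.609% of all tested genes were called higher. C2 and Serping1 were past the log2 limit too, at 5.02 and 6.27, and were not called. Both had 0 UMIs in saline, with 6 and 4 of C2 and 14 and 10 of Serping1 in the IFN-γ libraries. Their log2 fold changes thus rest on a saline sum of 0.

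The oligodendrocyte-like nuclei fell into 3 clusters, of which 1 held 381 and 178 nuclei of the IFN-γ libraries and 0 of saline, with C4b at 271.6 and 259.1 CPM. Within the cluster that held 70, 230 and 97 nuclei, the ratios of C4b to saline were 6.15 (3.16 to 13.7) and 7.49 (3.81 to 16.8). Within that of 121, 133 and 31 nuclei they were 13.5 (5.91 to 37.7) and 12.99 (5.03 to 39.5). C4b was thus higher after IFN-γ in both clusters that saline nuclei share. With every nucleus thinned to 2000 UMIs, C4b was found in 4.40% of saline and 35.1% and 36.3% of IFN-γ oligodendrocyte-like nuclei, after 9, 37 and 6 shallower nuclei were left out (5.76%, 48.4% and 57.2% unthinned, at median depths of 3383, 3445.5 and 4201.5 UMIs). Neuron-like nuclei, at median depths of 19133, 15471.5 and 18485 UMIs, gave 0%, 0.0747% and 0% when thinned.

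Astrocyte-like nuclei were the next class, with 3, 105 and 44 UMIs of C4b in 21, 135 and 37 nuclei, or 27.5, 162.3 and 189.1 CPM. The ratios were 5.90 (1.97 to 29.1) and 6.88 (2.21 to 34.6), and the log2 fold change of 2.67 was not past the limit (SE 0.63, edgeR adjusted p = 0.0109), with 0 of 2 tested members called in edgeR, both at an unadjusted p below 0.05, and 0.0844% of all tested genes called. Microglia-like nuclei had 1, 8 and 5 UMIs of C4b, and all neuron-like nuclei together 1, 15 and 5, or 0.0730, 0.658 and 0.413 CPM. The sort for NeuN+ nuclei sets in part how many nuclei of each class a library holds, and with it the shares that follow. Oligodendrocyte-like nuclei held 75.0%, 82.2% and 86.0% of all C4b UMIs of their library while making up 18.8%, 28.9% and 27.6% of its nuclei, and astrocyte-like nuclei held 15%, 13.8% and 10.8%. The transcripts of C4b share sequence with a near-identical copy, C4a. Of the 50-base words of C4b, 35.18% occur in C4a as well, so reads of these stretches cannot be given to 1 of the 2 genes. In the last 500 bases, nearest the 3′ end that is read, this share is 38.14%. C4a was at 0 to 1 UMI in each glial class.

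**Figure D4:**
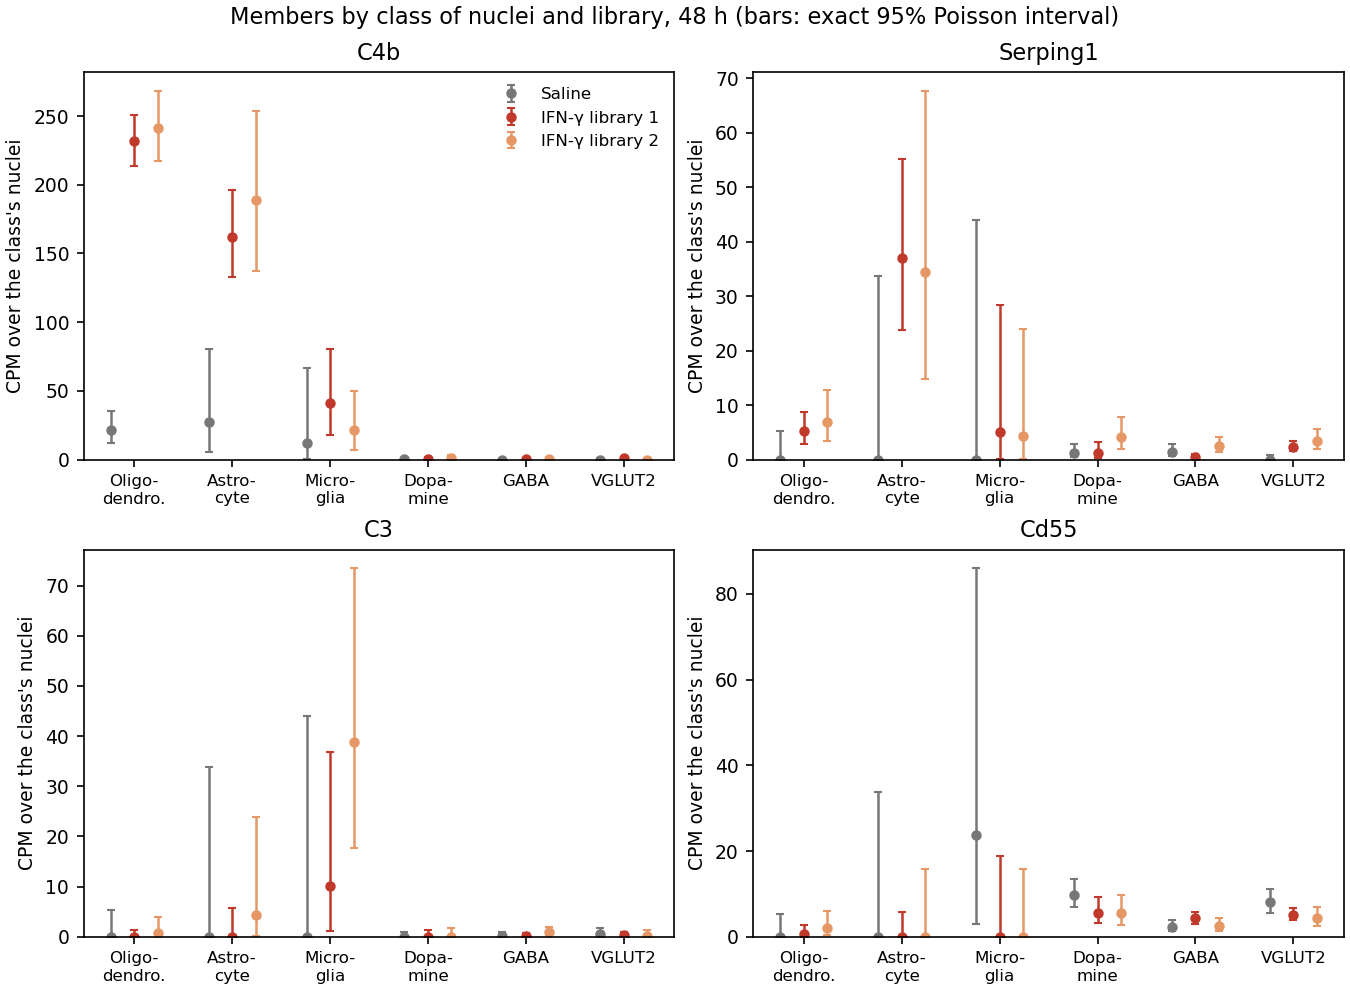
CPM of C4b, Serping1, C3 and Cd55 summed over the nuclei of each class in the saline and both IFN-γ libraries at 48 h, with bars for the exact 95% Poisson interval of the UMI sum. In the IFN-γ libraries C4b is highest in oligodendrocyte-like nuclei, at 231.8 and 241.7 CPM. In saline it is at 21.6 CPM there (15 UMIs), below its level in astrocyte-like nuclei (3 UMIs). Most UMIs of Cd55 lie in the neuron-like classes.

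Serping1, the inhibitor of C1r and C1s, lies at chr2:84765387-84775444 on the minus strand (ENSMUSG00000023224.12), and it was called in both fractions from the first time point. In NeuN- wells at 6 h the saline wells held 14.5, 17.1, 19.99 and 0 CPM and the IFN-γ wells 46.4 to 143.1 CPM (median 80.3). All IFN-γ wells were above all saline wells, as for 4.18% of tested genes, and the log2 fold change was 2.60 (SE 0.51, edgeR adjusted p = 1.29e-05). At 24 h the saline wells held 0 to 14.4 CPM (median 0, with a count in 2 of 6 wells) and the IFN-γ wells 40.2 to 132.5 CPM (median 84.95), again without overlap. The log2 fold change of 4.18 (SE 0.61, edgeR adjusted p = 3.59e-10) rests on 2 saline counts against 83. At 48 h the 6 IFN-γ wells held 1 count in all and at 72 h 4 counts, and saline wells held none at either time, so Serping1 was not tested there. The level in IFN-γ wells was thus lower at 48 and 72 h, from 0 to 9.56 CPM and from 0 to 14.9 CPM, than in any IFN-γ well at 6 or 24 h.

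In NeuN+ wells the saline wells had mean Serping1 levels of 3.47 ± 3.06, 3.12 ± 1.93, 3.05 ± 1.56 and 2.50 ± 1.43 CPM (SD, n = 4, 6, 4 and 4) at 6, 24, 48 and 72 h. At 6 h the saline wells held 7.22, 2.35, 0 and 4.30 CPM and the IFN-γ wells 20.1 to 37.3 CPM (median 31.1), a log2 fold change of 3.37 (SE 0.38, edgeR adjusted p = 1.80e-09). At 24 h the saline wells held 1.199 to 5.94 CPM (median 2.74) and the IFN-γ wells 14.1 to 29.5 CPM (median 19.6), a log2 fold change of 2.57 (SE 0.31, edgeR adjusted p = 1.27e-07). No IFN-γ well overlapped a saline well at 6 h, where 4.28% of tested genes were so separated, or at 24 h. At 48 h the saline wells held 3.98, 4.30, 0.841 and 3.08 CPM and the IFN-γ wells 1.93 to 11.6 CPM (median 3.24), with a log2 fold change of 0.33 (SE 0.56, edgeR adjusted p = 0.913). At 72 h the saline wells held 1.94, 4.62, 1.84 and 1.59 CPM and the IFN-γ wells 1.11 to 4.00 CPM (median 2.55), with a log2 fold change of 0.01 (SE 0.58, edgeR adjusted p = 0.998). IFN-γ and saline wells overlapped at both late times, when no member was separated in NeuN+ wells while 0.858% (48 h) and 3.2% (72 h) of all tested genes were.

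The IFN-γ effect on Serping1 in NeuN+ wells was smaller at 72 than at 24 h by a log2 of -2.55 (SE 0.71), which did not pass the adjusted limit (edgeR adjusted p = 0.0334). The effects in the fractions differed by a log2 of 0.63 at 6 h and -1.95 at 24 h (NeuN+ minus NeuN-), and neither was called (edgeR adjusted p = 0.319 at 24 h). In saline wells NeuN+ and NeuN- did not differ in the test (log2 fold change -0.08, edgeR adjusted p = 0.916). Mean Serping1 in NeuN+ wells was 34.2% and 23.3% of that in NeuN- wells after IFN-γ at 6 and 24 h. The shares were 16.9% and 14.9% for the astrocyte, 3.77% and 10.9% for the oligodendrocyte and 22.1% and 15.4% for the microglial markers. The summed markers of mural cells had means of 19.7 CPM in NeuN+ and 59.0 CPM in NeuN- wells after IFN-γ at 6 h. At 24 h these means were 20.2 and 84.7 CPM. None of these levels was compared with Serping1 by a test. When NeuN+ wells were thinned to 110247.5 UMIs, the median of NeuN- wells, Serping1 had log2 fold changes of 2.75 and 2.51 at 6 and 24 h and lost both calls (edgeR adjusted p = 0.222 and 0.311).

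Among nuclei at 48 h, Serping1 had 18, 78 and 63 UMIs in the saline, first and second IFN-γ library, or 1.10, 2.66 and 3.93 CPM over all nuclei, and it was spread over classes. Astrocyte-like nuclei had 0, 24 and 8 UMIs, which was at least 1.35-fold and 1.25-fold higher than the floor of 3 counts in saline. VGLUT2 neuron-like nuclei, the glutamatergic class, had 0, 25 and 14 UMIs, or at least 3.18-fold and 4.65-fold higher, without a call (edgeR adjusted p = 0.450). With all genes tested and no filter on low counts, Serping1 was called in this class (edgeR adjusted p = 0.00627). The VGLUT2 class joins clusters that differ in size between libraries. Examples held 3, 91 and 13, 3, 89 and 4, and 49, 11 and 31 nuclei of the saline, first and second IFN-γ library. Their part in the values of the class was not tested. Oligodendrocyte-like nuclei had 0, 14 and 10 UMIs, GABA neuron-like nuclei 8, 4 and 14, and dopamine neuron-like nuclei 5, 3 and 9. In dopamine, GABA and VGLUT2 neuron-like nuclei 0 of 2, 0 of 4 and 0 of 4 tested members were called in edgeR, with 0, 0 and 1 at an unadjusted p below 0.05, where 0.0505%, 0.0325% and 0.0272% of all tested genes were called higher.

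C1ra encodes the protease C1r, which cleaves C1s once C1q has bound, and lies at chr6:124512405-124523443 on the plus strand (ENSMUSG00000055172.10). Its partner C1s1 lies next to it on the opposite strand, at chr6:124530345-124542359. The RefSeq set of promoters (GRCm38.p6, 250 bases before to 50 after the start) has 3 of the 7 members, C1ra, C3 and Cd55, and no entry for C2, C4b, Cfb and Serping1. Of these 3, only C1ra held a match to the gamma-activated site TTCNNNGAA, which reads the same on both strands and was searched on both strands together with the core of the interferon-stimulated response element, GAAA and GAAA with any 2 bases between them. The promoters of C1ra (chr6:124512371-124512670, plus strand) and of its neighbour C1s1 (chr6:124542310-124542609, minus strand) are shown because both genes were seen mainly after IFN-γ, with the site in capitals.
C1ra: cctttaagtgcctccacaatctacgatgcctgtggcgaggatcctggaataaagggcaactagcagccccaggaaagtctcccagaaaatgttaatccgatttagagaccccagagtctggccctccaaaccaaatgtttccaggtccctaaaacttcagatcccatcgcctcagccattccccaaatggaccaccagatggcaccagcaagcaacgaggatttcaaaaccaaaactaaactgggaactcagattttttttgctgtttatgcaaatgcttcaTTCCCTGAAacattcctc
C1s1: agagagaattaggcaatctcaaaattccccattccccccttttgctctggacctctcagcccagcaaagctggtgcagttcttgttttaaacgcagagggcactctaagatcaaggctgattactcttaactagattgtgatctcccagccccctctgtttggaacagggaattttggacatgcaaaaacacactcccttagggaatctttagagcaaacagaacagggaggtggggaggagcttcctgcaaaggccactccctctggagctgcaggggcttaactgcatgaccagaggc
The match in C1ra begins at base 33 of the RefSeq transcript. That transcript starts 216 bases inside the GENCODE gene given above, so most of the window lies within the gene and the match begins at base 249 from the GENCODE start. The C1s1 window holds neither motif, and the window of C1rb, the near-identical copy of C1ra, holds the first. Among 32851 promoters of the same length 8.30% hold the first motif and 3.44% the second, and the windows of C3 and Cd55 hold neither. A match is a description of the letters in the window.

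C1ra was sparse, so its counts are given rather than its levels. In NeuN- wells at 6 h the IFN-γ wells held 10 counts (0 to 3 a well, a count in 5 of 6 wells) and the saline wells none, at least 2.10-fold higher against a floor of 3 counts over the group. The difference was not called (edgeR adjusted p = 0.0452). At 24 h it was 8 counts in 4 of 6 IFN-γ wells against 2 counts in 1 saline well (edgeR adjusted p = 0.657), and no well held a count at 48 or 72 h. In NeuN+ wells at 6 h each of the 6 IFN-γ wells held 1 to 4 counts, 14 in all, and no saline well held one, at least 1.90-fold higher and without a call (edgeR adjusted p = 0.0891). At 24 h the IFN-γ wells held 18 counts (0 to 6 a well, in 5 of 6 wells) and the 6 saline wells 1, with a log2 fold change of 3.67 (SE 0.85, edgeR adjusted p = 0.00387, set aside by DESeq2 with no adjusted p). At 48 h it was 5 counts against 1 and at 72 h 2 against 0. The counts of C1ra after IFN-γ thus lay mainly at 6 and 24 h in both fractions. In NeuN- wells at 6 h and NeuN+ wells at 6 and 24 h, C1ra met the filter of 10 counts through the IFN-γ wells alone.

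C1s1 ran beside C1ra, with 8 counts in 5 of 6 IFN-γ NeuN+ wells at 6 h and 15 in 5 of 6 at 24 h, against 0 in saline at either time. At 24 h this was at least 6.23-fold higher and was called (edgeR adjusted p = 0.00389). In NeuN- wells C1s1 had 5 counts against 0 at 6 h and 1 against 0 at 24 h. The 24 h call of C1ra was lost without saline replicate 2 or 5 or IFN-γ replicate 2 or 3 (edgeR adjusted p = 0.0123 to 0.0169), and that of C1s1 without saline replicate 2 or IFN-γ replicate 4 (edgeR adjusted p = 0.0109 and 0.0122). C1ra shares 48.02% of its 50-base words with C1rb, and 19.07% of those in its last 500 bases, so the split between these copies is uncertain. Nuclei held 5, 15 and 17 UMIs of C1ra in all.

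**Figure D5:**
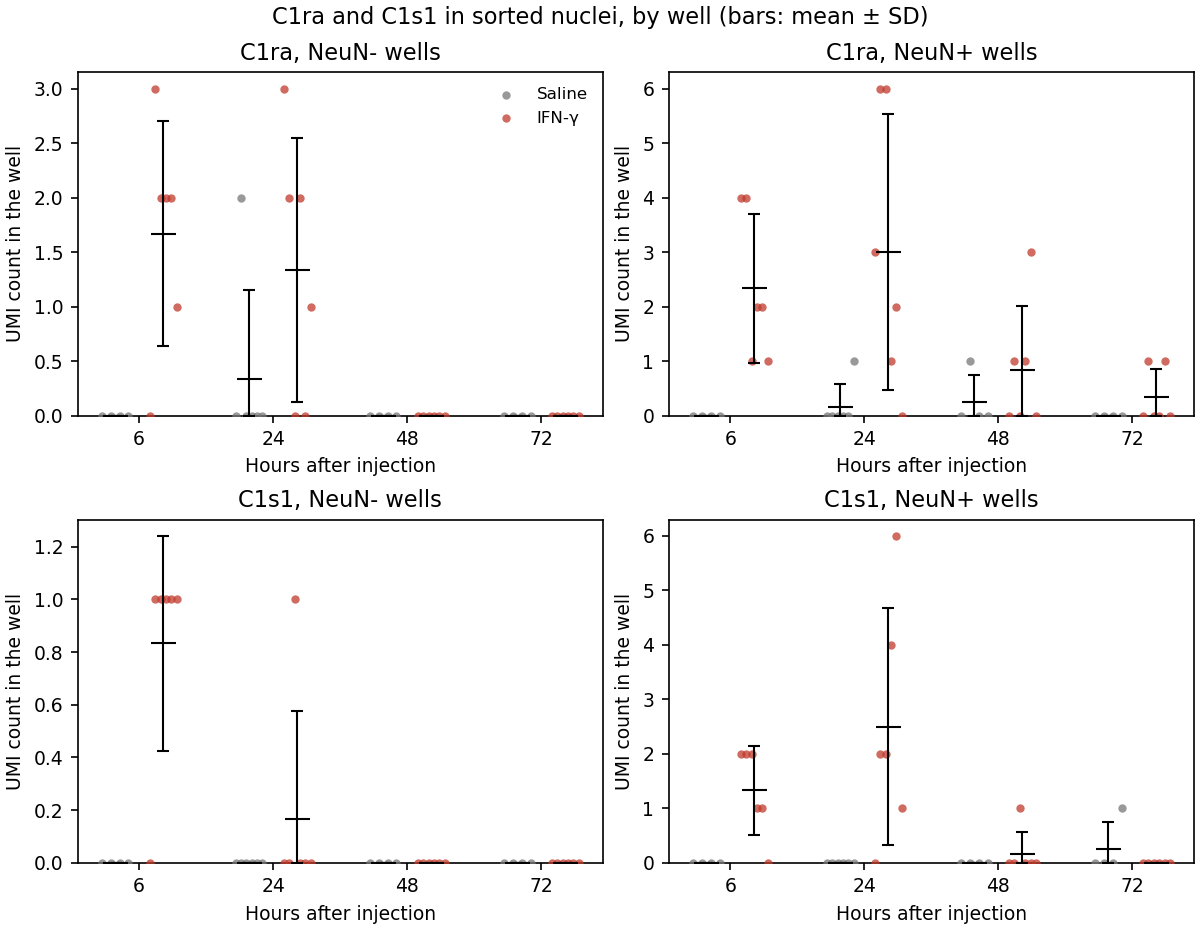
UMI counts of C1ra and C1s1 in each well (points) by time in hours for saline and IFN-γ wells of both fractions. At 24 h in NeuN+ wells C1ra has 0 to 6 counts a well after IFN-γ, 18 in all, against 1 count over the 6 saline wells, and C1s1 15 against 0.

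Both treatments and times differed in the sex of the mice, read from the X-linked Xist and the Y-linked Eif2s3y. In NeuN- wells at 6 h, Eif2s3y was at 110.0 to 159.6 CPM in saline and at 0 to 9.65 CPM in IFN-γ wells, with Xist high in both. At 24 h every IFN-γ NeuN- well had Eif2s3y at 265.0 to 475.5 CPM, whereas the saline wells of each fraction were a mix. A further fit at 24 h used only the 2 saline wells per fraction that had more Eif2s3y than Xist, a choice made after seeing the data. C4b was called there in NeuN- (log2 fold change 2.79, edgeR adjusted p = 1.69e-07) and NeuN+ wells (4.07, edgeR adjusted p = 4.60e-08). Serping1 was still called as well (NeuN- 6.67, edgeR adjusted p = 6.17e-06, and NeuN+ 3.45, edgeR adjusted p = 2.82e-06), while C1ra (2.80, edgeR adjusted p = 0.149) and C1s1 (edgeR adjusted p = 0.0701) were not. The difference between 6 and 24 h cannot be told apart from the sex of the mice. The part of sex in the treatment difference was not tested at 6 h, and the fit with 2 saline wells cannot decide it at 24 h.

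Cd55, the membrane regulator, lies at chr1:130439027-130462744 on the minus strand (ENSMUSG00000026399.12) and was seen mainly in neuronal nuclei. Saline NeuN+ wells held 161 counts over 18 wells, or 8.87 CPM, and saline NeuN- wells none, so Cd55 was at least 5.95-fold higher in NeuN+ against a floor of 3 counts over the 18 NeuN- wells. It was called in this comparison (edgeR adjusted p = 1.21e-07), 1 of 4 tested members higher in NeuN+ where 25.9% of all tested genes were. The median of all genes in this comparison was 0.40 on the log2 scale with TMM, 0.21 with RLE and -0.94 with DESeq2 factors, and Cd55 and C4b were called the same way with each. IFN-γ NeuN- wells held 0, 2, 4 and 1 counts at 6, 24, 48 and 72 h. The 4 counts at 48 h came from 2 wells and made a mean of 6.39 ± 11.6 CPM (SD, n = 6), beside 8.20 ± 2.37 CPM (SD, n = 6) in NeuN+ wells.

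In NeuN+ wells at 6 h Cd55 was at 7.22, 8.21, 6.31 and 4.30 CPM in saline and 7.06 to 10.7 CPM (median 8.62) in IFN-γ wells. At 24 h it was at 7.20 to 13.3 CPM (median 8.79) in saline and 3.69 to 9.38 CPM (median 6.27) in IFN-γ wells. At 48 h the saline wells held 9.95, 12.3, 12.6 and 12.3 CPM and the IFN-γ wells 5.20 to 11.6 CPM (median 7.65). The means were lower after IFN-γ at 24 and 48 h, yet the groups overlapped at every time. At 72 h the saline wells held 6.77, 2.77, 1.84 and 11.1 CPM and the IFN-γ wells 3.31 to 11.1 CPM (median 6.72). The log2 fold changes were 0.44, -0.46, -0.59 and 0.24 (SE 0.37, 0.29, 0.31 and 0.38) at 6, 24, 48 and 72 h, with edgeR adjusted p = 0.643, 0.436, 0.531 and 0.847. Cd55 therefore was not called at any time. Summed neuronal markers in NeuN+ wells differed too. Those of dopamine neurons were apart at 72 h (178.6 to 274.7 CPM in saline and 478.3 to 615.7 CPM in IFN-γ wells). VGLUT2 markers were apart at 6 h (1841 to 2045 and 1536 to 1684 CPM) and 72 h (2038 to 2176 and 1418 to 1536 CPM). GABA markers were apart at 24 h (205.7 to 323.2 and 107.4 to 160.5 CPM). At other times each list overlapped. The part of these shifts in the level of Cd55 was not tested.

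Among nuclei, neuron-like classes held 85 of 95, 110 of 133 and 45 of 55 UMIs of Cd55 in the saline, first and second IFN-γ library. Dopamine neuron-like nuclei had 9.81, 5.60 and 5.51 CPM (39, 15 and 12 UMIs) and VGLUT2 neuron-like nuclei 8.01, 5.09 and 4.35 CPM (33, 55 and 18 UMIs). GABA neuron-like nuclei had 2.32, 4.29 and 2.59 CPM. The IFN-γ libraries were below saline in dopamine and VGLUT2 neuron-like nuclei, without a call (log2 fold changes -0.82 and -0.74, edgeR adjusted p = 1.00 and 0.844). The part of the unlike clusters of the VGLUT2 class in its Cd55 levels was not tested. Oligodendrocyte-like nuclei had 0, 2 and 3 UMIs, astrocyte-like nuclei none, and microglia-like nuclei 2, 0 and 0. The 2 UMIs came from 1 nucleus and stand for 23.8 CPM (95% exact interval 2.88 to 86.0) in that shallow class. Cd55 shares 13.33% of its 50-base words with its copy Cd55b, and none of them in the last 500 exon bases that a 3′ library reads.

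C2, the protease that joins C4 to cleave C3, lies at chr17:34862604-34898265 on the minus strand (ENSMUSG00000024371.14). In NeuN+ wells it had 17, 9, 13 and 12 counts after IFN-γ and 8, 8, 4 and 6 after saline at 6, 24, 48 and 72 h, with means of 2.35, 1.56, 2.10 and 1.56 CPM against 2.36, 1.01, 1.02 and 1.38 CPM. The log2 fold changes were -0.23, 0.48, 0.93 and 0.07 (SE 0.66, 0.72, 0.79 and 0.76) and none was called (edgeR adjusted p = 0.931, 0.807, 0.754 and 0.983). NeuN- wells held 12 counts of C2 in all, and nuclei 23, 44 and 33 UMIs.

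C3, the component at which the pathways meet, lies at chr17:57203970-57228136 on the minus strand (ENSMUSG00000024164.15). It had 9 counts, each in a well of its own, and never more than 2 in a group, so no group was tested. In microglia-like nuclei it had 0, 2 and 9 UMIs, and the 9 UMIs of the second IFN-γ library (at least 1.08-fold above the floor of 3 counts in saline, edgeR adjusted p = 0.329) came from 4 nuclei. Cfb, at chr17:34856374-34862518 on the minus strand (ENSMUSG00000090231.10), had 1 count, in a NeuN- IFN-γ well at 6 h, and 0 UMIs in all nuclei. The annotation places Gm20547 on the same strand over 79.5% of the exon bases of Cfb and 42.77% of those of C2, and for the wells the sources used here do not give how reads that fit 2 genes were counted. For the nuclei the authors kept reads that aligned to 1 gene body alone. Gm20547 itself had 0 counts in the wells. Of coding genes with at least 95% of their exon bases inside another gene, 31.82% were at 0 counts, against 12.78% of other coding genes. Cfb, at 79.5%, lies below this limit and is among the other coding genes. The part of the overlap with Gm20547 in the low count of Cfb was not tested.

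The 49 other complement genes were sorted by role, and their calls with IFN-γ are given beside the shares of all tested genes. Itgam and C1s2 stand under 2 identifiers each and were given no value. In NeuN- wells 0 of 12, 0 of 14, 0 of 12 and 0 of 15 tested were higher in edgeR at 6, 24, 48 and 72 h, and 1 was lower, at 24 h, with 5, 4, 3 and 3 at an unadjusted p below 0.05. In NeuN+ wells 1 of 21, 1 of 26, 0 of 23 and 0 of 21 were higher and none was lower, with 5, 4, 3 and 1 at an unadjusted p below 0.05. Of all tested genes 3.41%, 3.77%, 0.52% and 0.438% were called higher in NeuN- wells at these times. In NeuN+ wells it was 0.81%, 1.3%, 0.126% and 0.249%, and 2.6% were called lower in NeuN- wells at 24 h. The counts of 0 and 1 were not compared with these shares by a test. DESeq2 called the 1 lower gene and no other. The gene called higher at 24 h was C1s1. Csmd3, which encodes a membrane protein with the CUB and sushi domains found in complement regulators, was lower in NeuN- wells at 24 h, at 2697 to 3426 CPM (median 3069) in saline and 1237 to 1609 CPM (median 1360) in IFN-γ wells, a log2 fold change of -1.15 (SE 0.14, edgeR adjusted p = 9.45e-14). Oligodendrocyte markers were lower in the same IFN-γ wells (means of 12470 CPM in saline and 5091 CPM in IFN-γ), and their part in the change of Csmd3 was not tested. The effect of IFN-γ on Csmd3 was less negative in NeuN+ than in NeuN- wells at 24 h (difference 1.23, SE 0.16, edgeR adjusted p = 5.46e-09) and less negative at 72 than at 24 h in NeuN- wells (difference 1.06, SE 0.17, edgeR adjusted p = 1.08e-07). Its relatives Csmd1 and Csmd2 were called in 3 such differences, Csmd1 in NeuN- wells from 6 to 24 h (1.23) and Csmd2 in NeuN- wells from 24 to 72 h (-1.51) and between fractions at 72 h (1.19).

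Clu, Cd59a, Cr1l and C4a were not called in any IFN-γ comparison of the wells. The C1q genes, which make the recognition protein, were lower in saline NeuN+ than NeuN- wells (log2 fold changes -2.41, -2.69 and -3.43 for C1qa, C1qb and C1qc, edgeR adjusted p = 0.00229, 5.98e-05 and 1.72e-08), as was the C3a receptor C3ar1 (-2.46). In microglia-like nuclei at 48 h, C1qa was at 1322, 617.7 and 878.0 CPM and C3ar1 at 59.5, 137.8 and 120.5 CPM in the saline, first and second IFN-γ library, and neither was called. C1qb was at 1036, 827.0 and 955.5 CPM and C1qc at 726.3, 469.7 and 886.6 CPM. In this class 0 of 2 tested members were called in edgeR, with 0 at an unadjusted p below 0.05, where 0.783% of all tested genes were called.

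The IFN-γ response itself was present in both fractions. Irf1, a transcription factor induced by IFN-γ, was higher with log2 fold changes of 6.94 and 6.33 in NeuN- and 6.26 and 5.93 in NeuN+ wells at 6 and 24 h. B2m, the light chain of class I molecules, was called in all 8 comparisons.

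The genes whose mean log2(CPM + 1) followed a member most closely over the 16 groups of wells were found among 14358 genes. For C4b they were Gm8995, AI607873 and Ifi204 (Pearson r = 0.942, 0.942 and 0.936). For Serping1 they were Hsph1, Ifit3b and Cul2 (r = 0.937, 0.910 and 0.903), and for Cd55 they were Lancl3, Ccl27a and Xkr6 (r = 0.986, 0.985 and 0.983). These correlations are descriptions over 16 group means that share wells, depth and fraction.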

How the data were processed

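The authors deposited raw counts of unique molecular identifiers, 1 table for the 84 sorted wells and 1 for the nuclei, neither normalized. For the wells the authors trimmed poly(A) from 3′-end reads, aligned them with STAR to GRCm38 with Gencode annotation and collapsed UMIs, and for the nuclei they counted introns too and had removed doublets before deposit. Reads came from 3′ ends and carry no length scale, so levels were not compared between genes. Gene positions are from the GENCODE annotation of GRCm38. The 7 members, the lists of other complement genes and the markers were chosen with earlier results of these data known.

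Counts were tested in R 4.3.3 with edgeR 4.0.16 and limma 3.58.1 (TMM, quasi-likelihood, at least 10 summed counts, adjustment over all tested genes), with DESeq2 1.42.0, the study's tool, as an alternative. IFN-γ calls needed a log2 fold change beyond 1, calls between fractions beyond 0.5, and calls in nuclei beyond 3 in the sum and in each IFN-γ library (prior count 0.5), all at an adjusted p below 0.01. The interactions of fraction or time with IFN-γ used the same test. Other alternatives were RLE factors, filterByExpr or no filter, saline wells of all times, 1 fit of all 84 wells, NeuN+ wells thinned to 110247.5 UMIs and each well left out in turn. Wells were the unit, since their mice are unknown. CPM were taken on total counts. Replicate numbers were given in accession order and pair no wells.

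Nuclei were clustered in Python 3.11.15 (scikit-learn 1.9.0, igraph 0.11.9, leidenalg 0.10.2, with numpy 2.4.6, pandas 2.3.3, scipy 1.17.1 and matplotlib 3.10.9) on genes other than complement genes. A cluster was named "-like" from its markers where 1 list led the next by a margin set after the data were seen. Classes are rebuilt and may differ from the study's. The 5 reporter entries that name no gene held 0 UMIs and were left out, and libraries shared 0 barcodes. Where a sum was 0, a floor of 3 counts was used, and 95% exact intervals cover counting error alone.

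All 7 members are named in each comparison. Other complement genes are named if called in an IFN-γ comparison of the wells or if set by name, and values of some genes under this rule are not reported here. For members with at least 100 counts the 3 most similar genes are given. On simulated counts with 200 genes changed 8-fold, 100% were recovered in NeuN- and NeuN+ wells at 6 and 24 h, 70% for the fraction interaction at 24 h (17881 genes) and 85.5% for the time interaction in NeuN+ wells (19010 genes). Between the fractions in saline wells 100% were recovered, with 78 calls among unchanged genes. The changed genes were drawn from those with at least 100 counts over the wells compared. Recovery of sparser genes, such as C1ra and C2, was not simulated.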

Additional observations from a re-analysis of the deposited data

Results flagged for a closer look

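Of 35 groups of 4 or 6 wells with at least 10 counts of a member, 5 had 1 well apart from the others by Dixon's criterion at the 95% level, which chance alone gives in about 1 of 20 groups. C4b was highest in saline NeuN+ replicate 1 at 24 h (3.76 CPM) and lowest in IFN-γ NeuN+ replicate 3 at 72 h (2.21 CPM). Serping1 was highest in IFN-γ NeuN+ replicate 1 at 48 h (11.6 CPM) and in saline NeuN+ replicate 2 at 72 h (4.62 CPM). Cd55 was lowest in saline NeuN+ replicate 1 at 48 h (9.95 CPM).

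The effect of IFN-γ on C4b in NeuN+ wells differed between times, being larger at 24 than at 6 h by 3.06 on the log2 scale in the interaction test. The sex of the mice differed between these times as well, and time and sex cannot be told apart.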

How the results depend on the processing

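Members called higher numbered 1 in NeuN- wells at 6 and at 24 h with filterByExpr, which did not test Serping1. In NeuN+ wells the number at 6 h was 3 with saline wells of all times (C4b 1.94 and C1ra 3.21 joined) and 0 with thinned wells. It was 1 with thinned wells at 24 h, 1 in the fit of all 84 wells at 48 h (C4b 2.90), and 0 with DESeq2, filterByExpr or thinned wells at 72 h. With 1 well dropped in turn, the number was 2 to 3 at 24 h and 0 to 1 at 72 h in NeuN+ wells. The comparison of 6 and 24 h in NeuN+ wells gave 0 with DESeq2, which left C4b without an adjusted p. Between fractions in saline, filterByExpr gave 0 higher and 0 lower, as it tested neither C4b nor Cd55, and a fit of all 84 wells with treatment and time as terms, which averages over saline and IFN-γ wells, gave 3 lower (C4b -3.40, Serping1 -1.20, C1ra -1.47). In VGLUT2 neuron-like nuclei 1 member (Serping1) was called with no filter. The direction turned for C4b in NeuN+ wells at 6 h when thinned (-0.36) and for Serping1 at 72 h with saline wells of all times (-0.16). When 1 well was left out, Serping1 in NeuN+ wells ran from -0.0466 to 0.712 at 48 h and from -0.23 to 0.51 at 72 h. None of these values was called. Except where a setting tested fewer genes, the cause was not tested. Shallow NeuN- wells limit C1ra, C2 and Cd55 there. No paired analysis was possible because the labels carry no replicate numbers.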
